A study of Homo sapiens with 4 samples.

Results

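The mitochondrial ribosomal protein genes encode, in the nucleus, the protein subunits of the ribosome that works inside mitochondria. They were taken as all genes of the deposited table whose symbol is MRPL or MRPS followed by a number and, in some, a letter, which gave 75 of 17825 listed genes, 46 named for the large subunit and 29 for the small subunit. RNA-seq was made in KYSE150, an established human line of esophageal squamous cell carcinoma, with 2 libraries of a negative control and 2 of cells that received an siRNA targeting CEBPG, a basic leucine zipper transcription factor. The cells were otherwise alike in line and medium (RPMI1640 with serum), 1 siRNA was analysed, and the labels used here state neither its sequence nor the time after transfection. Whether libraries of 1 group come from separate cultures is unstated, so p-values measure a spread that may be technical.

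The mitochondrial ribosome reads the few messenger RNAs of mitochondrial DNA, which encode core subunits of the respiratory chain and of ATP synthase. Its RNA is made in the mitochondrion, whereas all of its proteins are made in the cytosol and imported. The small subunit binds the messenger RNA and decodes it, and the large subunit joins the amino acids and passes the chain to the inner membrane. Many of the proteins descend from those of the bacterial ribosome, and others were acquired by mitochondria later. Cells that live by respiration depend on this machinery.

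Library totals lay between 15432762 and 15536501 counts, and the members held 0.439% to 0.494% of them. CEBPG itself had 52.8 and 50.2 CPM (the count scaled to a common TMM-corrected library size) in control cells and 13.4 and 12.8 CPM in siRNA cells (edgeR log2 fold change -1.98 with SE 0.077, adjusted p = 1.82e-11). Of 9 squamous markers 8 were listed, with a summed level of 1602 to 1638 CPM in control and 1811 to 1851 CPM in siRNA libraries, most of it from KRT5 and CDH1. KRT14 went the other way, with 9.27 and 10.1 CPM in control against 4.69 and 4.38 CPM in siRNA libraries, and so did KRT17, with 10.5 and 11.2 against 5.07 and 5.82 CPM. Stroma and immune markers (2 of 6 listed) summed to 10.2 to 13.3 CPM and retina markers (2 of 5 listed) to 1.73 to 3.19 CPM. Counts assigned to mitochondrial DNA were 8.66% and 8.74% of the control libraries and 10.0% and 9.94% of the siRNA libraries.

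Most members were lower in siRNA cells, by modest amounts. All 75 passed the filter on low counts, and 50 of them (66.7%) fell while 3 rose at an edgeR quasi-likelihood adjusted p under 0.05. Over all 14207 genes tested, 28.8% fell and 25.5% rose, 54.3% in either direction. The median log2 fold change of the members was -0.24, against 0.005 for all genes tested. The changes were small in size: 4 of the 75 members fell by more than 1.5-fold and 1 by more than 2-fold. Of all 14207 genes tested, 1173 fell by more than 1.5-fold and 407 by more than 2-fold. The interquartile range of the members ran from -0.39 to -0.08 on the log2 scale. The CPM of the 2 siRNA libraries lay below both control libraries for 57 members and above both for 5, where 38.2% and 38.0% of all genes did so. Without Control replicate 2 the number that fell was 27 of 75, where 17.3% of all genes fell. It was 31 (20.1% of all genes) without siCEBPG replicate 1, 34 (18.1%) without Control replicate 1 and 37 (20.7%) without siCEBPG replicate 2. In bulk libraries, fewer cells with a transcript and less of it per cell cannot be told apart.

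**Figure D1:**
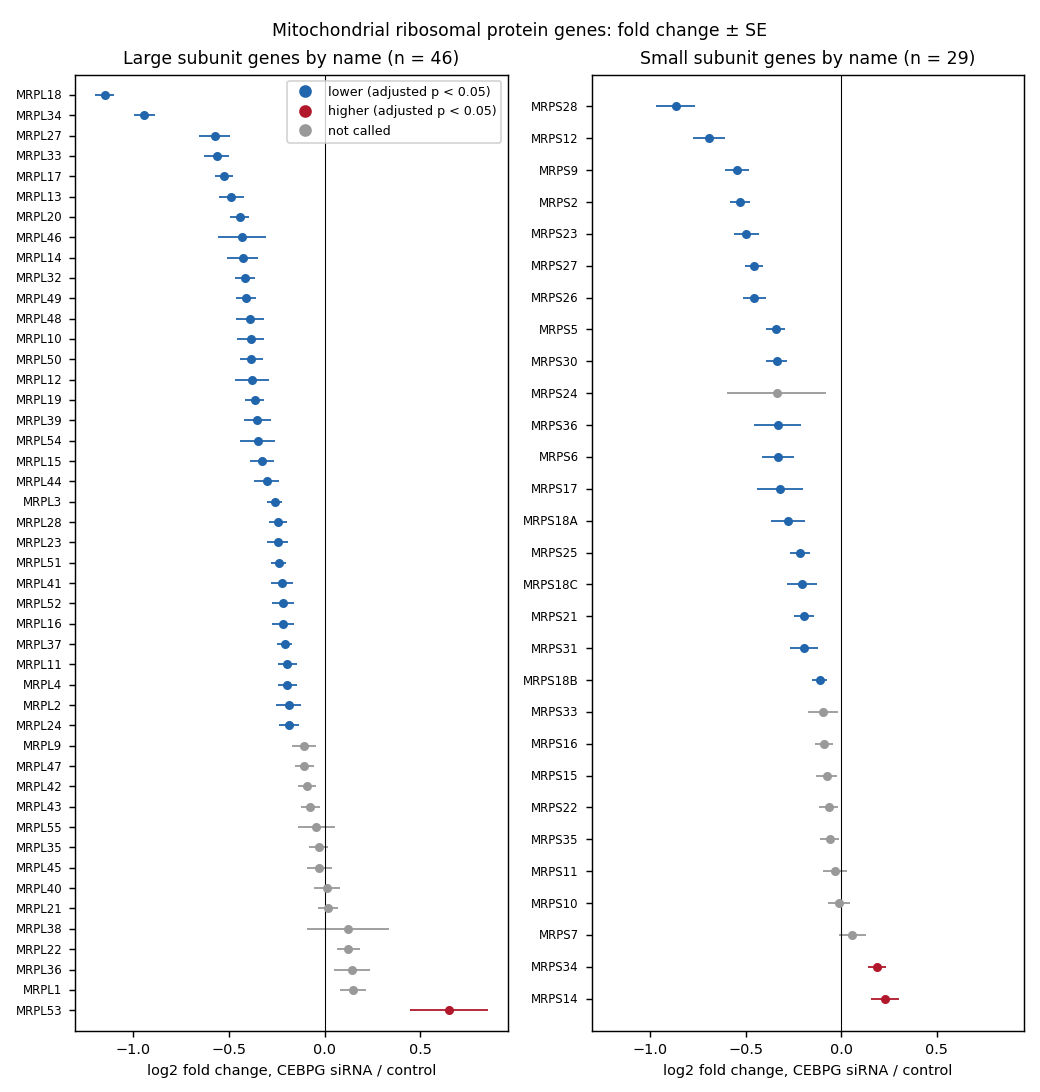
Log2 fold change of each member, CEBPG siRNA over control (x axis), with its SE as a bar, for the 46 large subunit and the 29 small subunit genes. Points are coloured by the call at an adjusted p under 0.05, and MRPL18 at -1.15 and MRPL53 at 0.65 mark the ends.

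Of the 46 large subunit genes 32 (69.6%) fell and 1 rose, and their median log2 fold change was -0.24. Of the 29 small subunit genes 18 (62.1%) fell and 2 rose, with a median of -0.22. The gap between these shares depended on the fit. Falls were 63.0% of the large and 41.4% of the small subunit genes with DESeq2 (24.1% of all genes). They were 65.2% and 41.4% with upper-quartile factors (23.9%), and 69.6% and 51.7% without a filter (21.9%). With the GC and length trend removed they were 60.9% and 37.9% (29.1%), and with RLE factors 69.6% and 62.1% (28.5%). With any 1 library left out, fewer genes of each subunit passed the threshold as lower, and so did a smaller share of all genes. Such a fit leaves 1 library in a group, so its counts are not used to compare the subunits. With total counts alone as the scale, 25 large subunit genes fell and 4 rose and 10 small subunit genes fell and 2 rose, where 21.7% of all genes fell and 34.8% rose, and the median of all genes then stood at 0.10. Which subunit had the lower median was not stable. The medians were -0.14 for the large and -0.19 for the small subunit after removal of the trend on transcript GC content and length and -0.20 and -0.23 without siCEBPG replicate 1, the reverse of the order above; without siCEBPG replicate 2 they were -0.27 and -0.19.

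**Figure D2:**
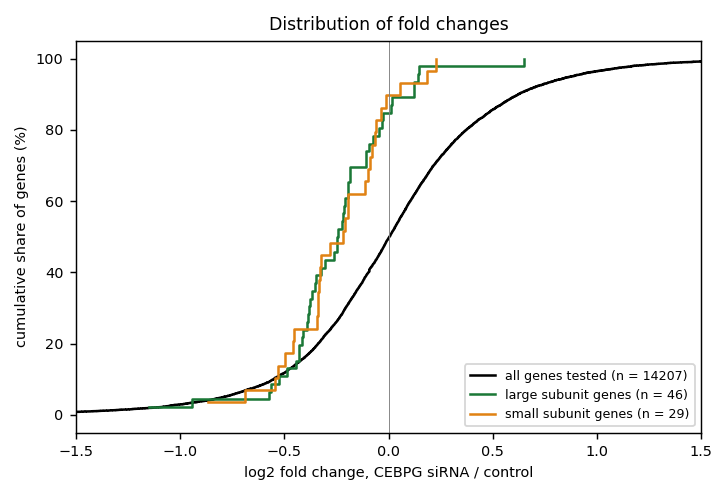
Cumulative share of genes (y axis, percent) at or below each log2 fold change (x axis) for the large subunit genes, the small subunit genes and all 14207 genes tested. Both member curves lie to the left of the curve of all genes over most of the range and cross each other, with medians of -0.24, -0.22 and 0.005.

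Summed over all 46 genes, the large subunit transcripts stood at 3093 CPM in both control libraries and at 2527 and 2592 CPM in the siRNA libraries, a change of -17.2% in the mean. The 29 small subunit transcripts summed to 1982 and 2022 CPM in control and to 1714 and 1756 CPM in siRNA libraries, a change of -13.3%. The groups did not overlap in either sum. The size of both changes depended on the scale. With total counts the log2 changes were -0.17 for the large and -0.11 for the small subunit, against -0.27 and -0.21. On the authors' deposited RPKM the large subunit genes summed to 1358 and 1364 in control and 1179 and 1200 in siRNA libraries, a change of -12.6%, and the small subunit genes to 822 and 844 against 777 and 796, a change of -5.62%. The ratio of large to small subunit counts, which no scaling of the libraries can move, was 1.56 and 1.53 in control and 1.47 and 1.48 in siRNA libraries. Both siRNA ratios were the lower ones, by 0.07 on the log2 scale. Without MRPL18 and MRPL34, an alternative chosen after seeing the data, the ratio was 1.47 and 1.44 in control and 1.42 and 1.42 in siRNA libraries, a log2 difference of -0.03. As these genes were picked for their falls, their removal had to bring the ratios closer.

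**Figure D3:**
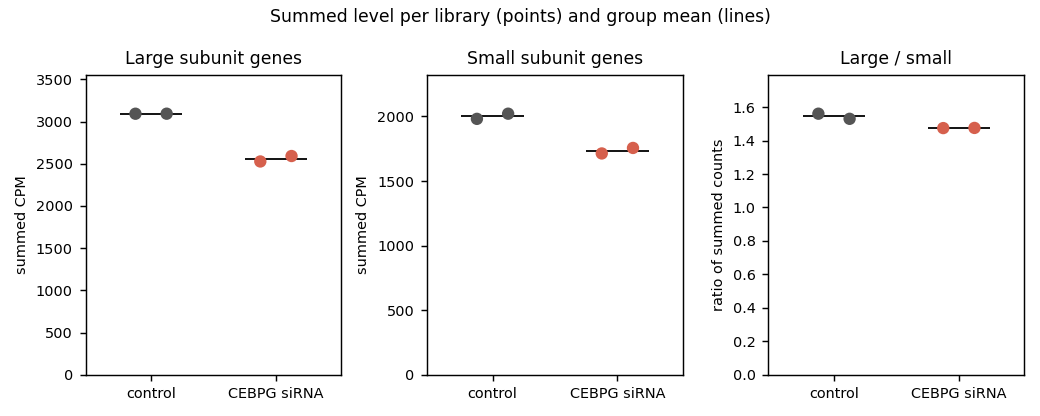
Summed CPM of the large subunit genes, of the small subunit genes and the ratio of their summed counts (y axes, from 0) in each library (points), with the group mean as a line. The siRNA libraries lie below the control libraries in all 3 panels, with ratios of 1.47 and 1.48 against 1.56 and 1.53.

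Names do not always give the place of the protein. MRPS18A and MRPS30 sit in the large subunit of the assembled ribosome, and MRPS36 is now counted as a part of the 2-oxoglutarate dehydrogenase complex. With the first pair moved and MRPS36 left out, 34 of 48 large and 15 of 26 small subunit genes fell, with medians of -0.25 and -0.20. MRPS30 had 67.9 and 71.0 CPM in control and 55.4 and 54.4 CPM in siRNA libraries, with no overlap (edgeR log2 fold change -0.34 with SE 0.054, adjusted p = 8.09e-05). MRPS36 had 14.6 and 14 CPM in control and 12.8 and 9.89 CPM in siRNA libraries (edgeR log2 fold change -0.33 with SE 0.12, adjusted p = 0.0303). That call was lost in 8 of 12 fits, the main one included, among them DESeq2, total counts and the fit without a filter. Its log2 fold change ran from -0.53 to -0.16 over the alternatives.

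The genes can also be grouped by descent. Among members with a bacterial counterpart 30 of 44 fell and 1 rose, with a median log2 fold change of -0.25. Among mitochondria-specific members 17 of 27 fell and 2 rose, with a median of -0.22. Over all genes tested 28.8% fell and 25.5% rose. MRPL55, MRPS18A, MRPS18B and MRPS36 were put in neither class. The 4 members that fell by more than 1.5-fold, MRPL18, MRPL34, MRPS28 and MRPS12, all belong to the first class. That class is also the larger, with 44 members against 27, and the classes were not tested against each other.

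MRPL18 belongs to the family of bacterial L18, which binds 5S ribosomal RNA, and had the largest fall of all members. It stood at 94.3 and 95.5 CPM in control and at 43.0 and 42.4 CPM in siRNA libraries. The libraries of each group lay close together and far from the other group (edgeR log2 fold change -1.15 with SE 0.052, adjusted p = 1.05e-10). MRPL34, the counterpart of bacterial L34, had 87.5 and 90.9 CPM in control against 44.7 and 48.1 CPM in siRNA libraries. Here too the groups lay far apart (edgeR log2 fold change -0.94 with SE 0.056, adjusted p = 2.02e-09). MRPS28, which is related to bacterial S1 and lies in the small subunit, had 16.8 and 17.6 CPM in control and 9.70 and 9.14 CPM in siRNA libraries. Both siRNA values lay well under the control values (edgeR log2 fold change -0.87 with SE 0.10, adjusted p = 4.49e-06).

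MRPS12 is the counterpart of bacterial S12, a protein of the decoding centre. It had 61.8 and 63.6 CPM in control and 34.1 and 43.6 CPM in siRNA libraries. The siRNA libraries were both lower but differed from each other more than in the genes above (edgeR log2 fold change -0.69 with SE 0.084, adjusted p = 5.26e-06), and without Control replicate 2 the adjusted p was 0.053. MRPL27, the counterpart of a bacterial protein at the peptidyl transferase centre, had 37.9 and 32.9 CPM in control and 22.9 and 24.6 CPM in siRNA libraries (edgeR log2 fold change -0.58 with SE 0.083, adjusted p = 2.99e-05). MRPL33 had 42.9 and 43.4 CPM in control and 28.7 and 29.7 CPM in siRNA libraries (edgeR log2 fold change -0.56 with SE 0.066, adjusted p = 3.42e-06). Neither gene showed overlap between the groups. The falls of MRPL18, MRPL34, MRPS28, MRPL27 and MRPL33 passed the threshold in every alternative that could be fitted to them.

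Earlier results from these data related the word GGCTATT in transcripts to lower values after this siRNA, and CEBPG carries it in its 3' UTR. Of the 75 members 7 (9.33%) have it in their transcript (GENCODE release 29, GRCh38), as do 12.9% of 11408 coding genes tested. These shares are not scaled for transcript length, whose median was 1455 bases for members and 3190 bases for coding genes tested. In MRPL18 and MRPS28 the word lies in the coding sequence and goes on with an A. MRPL18 had the largest fall of all members, and MRPS28 the largest among the small subunit genes. MRPL34 (-0.94) and MRPS12 (-0.69) had the next largest falls in their subunits and do not have the word. MRPL10, with its word in the 3' UTR, had a log2 fold change of -0.39, MRPL44 (coding sequence) -0.30 and MRPS18C (3' UTR) -0.21. MRPS33 (coding sequence) had -0.10 with an edgeR adjusted p of 0.33, and MRPL53 (5' UTR) was higher. Of all 1466 coding genes with the word 52.4% fell, and of 493 coding genes that have both GGCTATT and its shifted form GCTATTA 58.8% fell. As the word came from these same data, these shares are not an independent result. As the siRNA sequence is not stated, the place it targets in CEBPG is not known here. The site in MRPS28 is not shown. The other sites are shown beside that of CEBPG, 5′ to 3′ as in the transcript, with the word and any following A in capitals.
CEBPG: aaagacccattggaGGCTATTtt
MRPL18: tccactcgtgagtgGGCTATTAa
MRPL44: aataaatcccatggGGCTATTgg
MRPL10: tcctgaaaagatagGGCTATTgt
MRPS18C: tattttgaaaataaGGCTATTct
MRPS33: tcgtctcagtgcccGGCTATTtg
MRPL53: cacgtttaagctttGGCTATTca

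The word stands at chr6:159797377-159797384 on the plus strand in MRPL18 (its coding sequence) and at chr19:33379810-33379816 on the plus strand in CEBPG, both in GRCh38. The unbroken run in common with the CEBPG site was 7 bases in MRPL18, MRPL10, MRPL44, MRPS28 and MRPL53 and 8 bases in MRPS18C and MRPS33. CGGAGAA is a second word from those earlier results. Coding genes with it went the other way from those with GGCTATT: 702 of 1756 rose and 431 fell, with a median of 0.11. This direction, too, is not independent of the earlier results. Of 6 members with CGGAGAA 5 fell and 0 rose by edgeR, also at an unadjusted p under 0.05 and by DESeq2. Members without any of these words fell too. Among 56 members with none of 4 words (GGCTATT, its shifted form GCTATTA, the word CGGAGAA and its shifted form TCGGAGA) anywhere in the transcript, 36 fell and 2 rose, with a median log2 fold change of -0.22, where 30.6% of 7139 coding genes without these words fell (median -0.02). Whether the words have a part in single values was not tested.

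Rises were few and weak. MRPS14, the counterpart of bacterial S14, had 25.9 and 26.3 CPM in control and 29.9 and 31.2 CPM in siRNA libraries (edgeR log2 fold change 0.23 with SE 0.073, adjusted p = 0.0150). MRPS34, a mitochondria-specific protein needed for a stable small subunit, had 111 and 119 CPM in control and 131 and 130 CPM in siRNA libraries (edgeR log2 fold change 0.18 with SE 0.047, adjusted p = 0.00377). The siRNA libraries of both genes lay above the control libraries. The call of MRPS14 was lost with DESeq2 (adjusted p 0.16) and when any library was left out, with adjusted p-values of 0.052 to 0.11. The call of MRPS34 was lost without Control replicate 1 (0.10), siCEBPG replicate 1 (0.081) or siCEBPG replicate 2 (0.070). MRPL53, named after its values were seen because it lies under 5 CPM, had 34 and 37 counts in control and 56 and 63 in siRNA libraries (edgeR log2 fold change 0.65 with SE 0.20, adjusted p = 0.0140). This call was lost with DESeq2 (0.17), with either control library left out (0.11 and 0.081) and with siCEBPG replicate 2 left out (0.091).

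**Figure D4:**
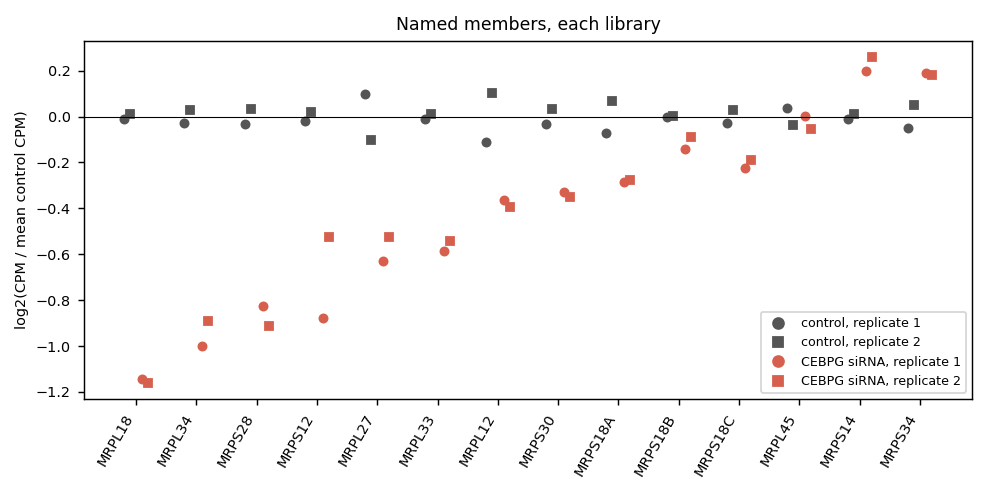
Log2 of CPM over the mean control CPM (y axis) for 14 named members (x axis), with 1 point per library. The siRNA libraries of MRPL18 lie near -1.15, those of MRPL45 overlap the control libraries, and those of MRPS14 and MRPS34 lie above them.

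The 3 relatives of bacterial S18 occupy different places in the ribosome, MRPS18A in the large subunit and MRPS18B and MRPS18C in the small one. MRPS18A had 20.2 and 22.3 CPM in control and 17.5 and 17.5 CPM in siRNA libraries (edgeR log2 fold change -0.28 with SE 0.088, adjusted p = 0.0141). MRPS18B had 239 and 240 CPM in control and 217 and 225 CPM in siRNA libraries (edgeR log2 fold change -0.11 with SE 0.039, adjusted p = 0.0222). MRPS18C had 24.9 and 25.9 CPM in control and 21.7 and 22.3 CPM in siRNA libraries (edgeR log2 fold change -0.21 with SE 0.078, adjusted p = 0.0359). All 3 were lower in both siRNA libraries, but the calls are fragile. That of MRPS18C was lost when any library was left out (adjusted p 0.090 to 0.15). That of MRPS18B did not hold with either control library left out (0.13 in both) or siCEBPG replicate 1 left out (0.14). That of MRPS18A did not hold without Control replicate 2 (0.13), siCEBPG replicate 1 (0.11) or siCEBPG replicate 2 (0.10). With total counts as the scale MRPS18B stood at -0.01, MRPS18C at -0.11 and MRPS18A at -0.18, each past no threshold. None of the 3 calls held with upper-quartile factors or with the GC and length trend removed. Nor did any pass by the authors' deposited table (Wald test), with adjusted p-values of 0.117 for MRPS18A, 0.0572 for MRPS18B and 0.208 for MRPS18C.

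MRPL12 forms the flexible stalk that calls in translation factors, and is also known to bind the mitochondrial RNA polymerase. Its values were 23.5 and 27.3 CPM in control and 19.8 and 19.3 CPM in siRNA libraries, lower without overlap (edgeR log2 fold change -0.38 with SE 0.089, adjusted p = 0.00219). The adjusted p was 0.075 without Control replicate 2, 0.078 without siCEBPG replicate 1 and 0.087 without siCEBPG replicate 2. MRPL45, which holds the large subunit at the inner membrane beside the exit of the peptide tunnel, had 37.8 and 35.9 CPM in control and 36.8 and 35.4 CPM in siRNA libraries. The groups overlapped, and the change did not pass the test (edgeR log2 fold change -0.03 with SE 0.067, adjusted p = 0.75). Of the 22 members that did not pass, 15 had a negative and 7 a positive log2 fold change, from -0.34 to 0.15. Nearest to the threshold were MRPS18C inside it (adjusted p 0.0359) and MRPL1 outside (0.0751).

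Levels of the members differed widely although their proteins are needed in equal numbers for most positions of the ribosome. On the scale of the authors' deposited RPKM (reads scaled by gene length and library size), the mean control level ran from 0.625 to 122 with a median of 22.3. The gene lengths behind it are not stated and can differ from the transcripts used here. In Control replicate 1 MRPL46 (transcript of 1019 bases) had 13.1 CPM and 1.97 RPKM, and MRPS28 (850 bases) 16.8 CPM and 8.91 RPKM. Levels compared between genes, and their ranks, may thus partly reflect those lengths. The medians were 23.8 for the large and 16.0 for the small subunit. The highest levels, over all 4 libraries, were those of MRPS18B, MRPS34 and MRPL51. MRPL51, a mitochondria-specific large subunit protein, had 118 and 117 RPKM in control and 108 and 105 RPKM in siRNA libraries. It fell by 0.24 on the log2 scale of the counts (SE 0.041, edgeR adjusted p = 0.000144).

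The lowest were MRPL38, a protein of the central protuberance, with 0.66 and 0.59 RPKM in control and 0.65 and 0.80 RPKM in siRNA libraries, and MRPS24, the counterpart of bacterial S3, with 0.79 and 0.94 RPKM in control and 0.87 and 0.59 RPKM in siRNA libraries. At 24 to 52 counts per library the groups overlapped in both, and neither change passed the test (edgeR adjusted p = 0.66 and 0.29). Exons of MRPL38, MRPS24, MRPL53 and MRPL46, which were the 4 members under 5 RPKM in control cells, overlap on the same strand with exons of another protein-coding gene in GENCODE release 29, as those of 10 of the 75 members do. MRPS28 and MRPL12 are among these 10. In all, 24 members overlap a protein-coding gene on either strand. The labels do not state how reads were shared between overlapping genes, or between members and pseudogene copies. The levels and changes of such members are therefore uncertain. Pseudogene rows were low: MRPL45P2 had 11 to 26 and MRPS31P5 had 5 to 10 counts per library.

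Transcripts of the members are short. The median length was 1455 bases, against 3190 for coding genes tested, and that of the 3' UTR was 389 against 1086 bases. The fitted trend of fold change on GC content and length had a median of -0.09 at the members and -0.03 over all genes. With it removed, 39 members fell and 7 rose, where 29.1% of the genes then tested fell and 28.5% rose.

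Promoters, from 250 bases before to 50 after the start, were matched by symbol in the RefSeq table (GRCh38.p14) for 66 of 75 members. Words were searched on both strands. The ETS word CCGGAAG, bound by GABP and its relatives, was present in 27 of 66 (40.9%), against 19.6% of 9351 promoters of tested genes and 10.7% of all 27305. The YY1 word AAGATGGCG was present in 13 (19.7%), against 4.11% and 1.85%. The NRF1 word GCGCANGCG was present in 11 (16.7%), against 15.1% and 8.05%. The words for C/EBP factors were rare: TGATGNAA, the composite word of C/EBP and ATF factors, was in 1 of 66 promoters (1.52%, against 1.68% of tested genes and 3.67% of all), and the C/EBP palindrome TTGCGCAA was in 0 of 66 (against 0.225% and 0.128%).

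Falls were frequent with and without the ETS word. Of 27 with the word 17 fell (median log2 fold change -0.22), and of 39 without it 26 fell, with a median of -0.30. Of all tested genes 652 of 1833 with the word and 2403 of 7518 without it fell. With the YY1 word 7 of 13 fell and without it 36 of 53, both with a median of -0.22, where 141 of 384 and 2914 of 8967 tested genes fell. MRPL27, which fell, and MRPS34, which rose, both carry repeated ETS words, and their promoters are shown for this contrast, 5′ to 3′ on the strand of the gene, with the word in either orientation in capitals. The promoter of MRPL27 is at chr17:50373135-50373434 (minus strand) and that of MRPS34 at chr16:1773085-1773384 (minus strand).
MRPL27: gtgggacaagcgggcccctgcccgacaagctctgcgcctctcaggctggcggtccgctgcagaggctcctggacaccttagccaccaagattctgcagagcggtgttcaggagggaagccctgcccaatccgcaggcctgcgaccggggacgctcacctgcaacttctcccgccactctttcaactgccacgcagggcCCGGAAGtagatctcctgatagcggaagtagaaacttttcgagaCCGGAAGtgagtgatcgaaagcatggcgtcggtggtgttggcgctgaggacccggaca
MRPS34: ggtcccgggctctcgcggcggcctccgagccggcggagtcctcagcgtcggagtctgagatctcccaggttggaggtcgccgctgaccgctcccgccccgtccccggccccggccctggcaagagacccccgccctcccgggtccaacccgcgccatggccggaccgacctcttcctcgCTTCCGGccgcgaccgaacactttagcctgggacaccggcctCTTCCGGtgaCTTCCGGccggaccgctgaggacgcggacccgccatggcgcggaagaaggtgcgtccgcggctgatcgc

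Lists of genes that act with the mitochondrial ribosome moved in different ways, and their counts are read against the 28.8% of all genes that fell and the 25.5% that rose. Of 7 ribosomal proteins listed under other names 4 fell and 2 rose (median log2 fold change -0.17). With either control library or siCEBPG replicate 1 left out 2 of them fell, and 3 with siCEBPG replicate 2 left out. Rises numbered 1 when Control replicate 1 was left out and 0 for each of the other libraries. ICT1, a peptidyl-tRNA hydrolase built into the large subunit and now named MRPL58, had 22 and 19.0 CPM in control and 26.9 and 27.1 CPM in siRNA libraries, a log2 fold change of 0.40 by edgeR (SE 0.085, adjusted p = 0.00111). CHCHD1, a small subunit protein, had 33.2 and 35.5 CPM in control and 25.5 and 28.5 CPM in siRNA libraries, a log2 fold change of -0.35 by edgeR (SE 0.077, adjusted p = 0.00139). Left-out libraries cost both calls: for ICT1 Control replicate 2 (0.061), siCEBPG replicate 1 (0.057) or siCEBPG replicate 2 (0.058), and for CHCHD1 either control library (0.051 and 0.096) or siCEBPG replicate 1 (0.066).

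Among 27 assembly factors and ribosomal RNA modifying enzymes 11 fell and 6 rose, with a median of -0.09 that became 0.008 with total counts (8 fell, 9 rose). With the trend removed it was 0.02 over the 22 genes that had GC content and length, so the genes changed as well as the scale. Rises numbered 2 without Control replicate 1 and 3 without Control replicate 2. MPV17L2, an assembly factor of the inner membrane, had 27.8 and 28.8 CPM in control and 15.8 and 16.4 CPM in siRNA libraries (edgeR log2 fold change -0.81 with SE 0.082, adjusted p = 6.97e-07). MALSU1, which keeps the large subunit from joining the small one too early, had 60.3 and 58.2 CPM in control and 37.9 and 38.1 CPM in siRNA libraries (edgeR log2 fold change -0.64 with SE 0.059, adjusted p = 2.65e-07). Among 16 translation factors 4 fell and 4 rose, 25% each (median 0.03, and -0.005 without Control replicate 2). The balance depended on the scale: 2 fell and 8 rose with total counts (median 0.13), and 2 fell and 7 rose with upper-quartile factors. Without Control replicate 1 or siCEBPG replicate 1, 2 fell and 1 rose, without Control replicate 2, 2 fell and 2 rose, and without siCEBPG replicate 2, 4 fell and 2 rose. GFM2, which recycles ribosomes after a round of translation, had 62.7 and 57.9 CPM in control and 80.8 and 80.2 CPM in siRNA libraries and rose (edgeR log2 fold change 0.42 with SE 0.054, adjusted p = 1.07e-05). SLIRP, which stabilizes mitochondrial messenger RNA, had 134 and 127 CPM in control and 94.8 and 102 CPM in siRNA libraries and fell (edgeR log2 fold change -0.41 with SE 0.05, adjusted p = 6.61e-06).

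Genes of mitochondrial transcription and RNA processing had 9 falls and 0 rises among 12 (75% lower, median -0.24); edgeR at an unadjusted p under 0.05 and DESeq2 also gave 0 rises, and 1 rose with total counts or with the GC and length trend removed. The 9 falls became 4 without Control replicate 2, 5 without siCEBPG replicate 1, 6 without Control replicate 1 and 7 without siCEBPG replicate 2. TEFM, the elongation factor of the mitochondrial RNA polymerase, had 13.9 and 17.6 CPM in control and 10.8 and 10.4 CPM in siRNA libraries (edgeR log2 fold change -0.57 with SE 0.12, adjusted p = 0.000924). Its call was lost without Control replicate 2 (0.055), siCEBPG replicate 1 (0.074) or siCEBPG replicate 2 (0.082). PNPT1, an RNA-degrading enzyme, had 80.3 and 84.3 CPM in control and 59.2 and 53.4 CPM in siRNA libraries (edgeR log2 fold change -0.55 with SE 0.059, adjusted p = 1.43e-06). Of 7 tested nuclear regulators 4 fell and 1 rose (median -0.19), with 1 fall without Control replicate 2, 2 falls without Control replicate 1 and 2 with total counts. NRF1, a transcription factor of many of these genes, had 17.5 and 18.1 CPM in control and 11.1 and 13.0 CPM in siRNA libraries (edgeR log2 fold change -0.57 with SE 0.10, adjusted p = 0.000268, and 0.053 without Control replicate 2). The coactivator gene PPARGC1B had 32.7 and 29.9 CPM in control and 24.0 and 23.3 CPM in siRNA libraries (edgeR log2 fold change -0.41 with SE 0.077, adjusted p = 0.000388).

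The messenger RNAs that this ribosome translates went both ways. Of 13 encoded by mitochondrial DNA 4 fell and 6 rose, and the median was 0.009, with a sign that turned with DESeq2, without a filter and without Control replicate 1. With total counts 1 fell and 8 rose (median 0.11), and with the GC and length trend removed 2 fell and 8 rose (median 0.14). Rises numbered 2 without Control replicate 1 and 3 without siCEBPG replicate 2, and 4 each without Control replicate 2 or siCEBPG replicate 1. Falls numbered 2 without Control replicate 2 or siCEBPG replicate 2. MT-ND3 had 1249 and 1179 CPM in control and 850 and 937 CPM in siRNA libraries (edgeR log2 fold change -0.44 with SE 0.044, adjusted p = 7.34e-07). MT-ND6 had 1892 and 1900 CPM in control and 2346 and 2137 CPM in siRNA libraries (edgeR log2 fold change 0.24 with SE 0.041, adjusted p = 0.000136), a call that was lost without Control replicate 1 (0.070) or Control replicate 2 (0.076). Both encode subunits of respiratory complex I. The ribosomal RNAs of the same organelle were looked at after their values were seen. MT-RNR2, the RNA of the large subunit, had 17648 and 17099 CPM in control and 21416 and 20509 CPM in siRNA libraries (edgeR log2 fold change 0.27 with SE 0.035, adjusted p = 1.13e-05). MT-RNR1, that of the small subunit, had 3989 and 3982 CPM in control and 4163 and 4000 CPM in siRNA libraries (edgeR log2 fold change 0.03 with SE 0.034, adjusted p = 0.41). The labels do not state how RNA was selected for these libraries, so these levels may not follow the amount of ribosomal RNA in the cell.

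**Figure D5:**
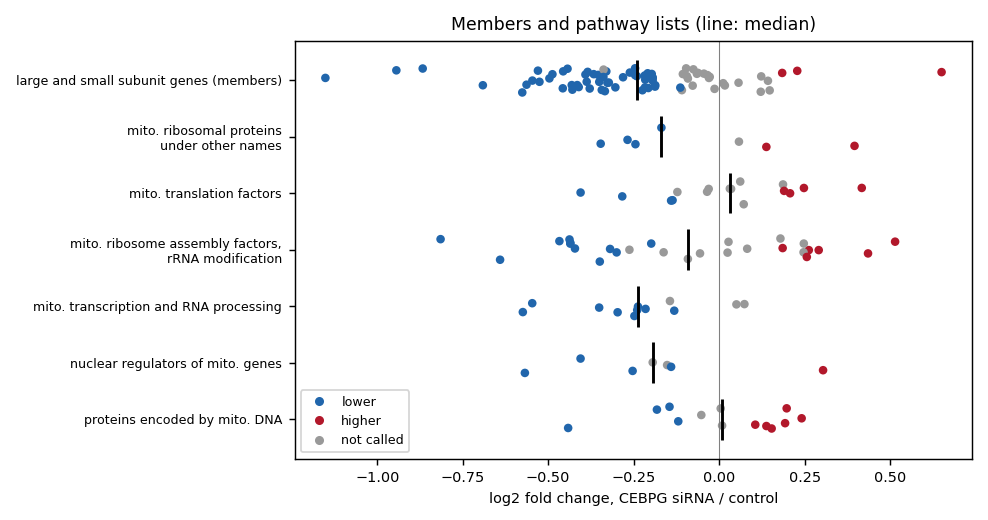
Log2 fold change (x axis) of the 75 members and of the genes in 6 lists that act with the mitochondrial ribosome, 1 point per gene coloured by its call, with the median as a line. The members and the transcription list have medians of -0.24, and the translation factors and the proteins encoded by mitochondrial DNA lie on both sides of 0.

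By the authors' deposited table, members lower at an adjusted p under 0.05 numbered 41 and higher 1, where 18% and 12.4% of its 17825 genes were. The DESeq2 fit run on the counts gave 41 and 1 as well, where 24.1% and 16.6% of the 13332 genes with an adjusted p fell and rose. Over all genes both gave 3216 falls and 2210 rises, so this fit repeats the authors' result and is not separate evidence. The shares of all genes differ only by the number of genes they are taken over. Each of the authors' 42 calls of members has the same sign and also passes by edgeR. MRPL18 stands at -1.16 (log2 fold change, standard error 0.086) by the authors' deposited table.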

How the data were processed

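The members and all gene lists, tests and alternatives were chosen with earlier results of these data known. The whole-number read counts per gene were deposited by the authors and entered every test. The tools RSEM 1.2.12, Bowtie2 2.2.5 and HISAT2 2.0.4, DESeq, and the build hg19 are named, without roles, per the submitters' processing notes, so the counts may be rounded estimates; no source here states the annotation or the use of strand. The deposited RPKM, per the file headers, served for levels between genes. The authors' deposited log2 fold change with its standard error, p-value and adjusted p-value are named where printed, and the deposited signal column (mean normalized count) and score column (Wald statistic) were not used. Every gene listed has at least 10 counts over the 4 libraries.

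Counts were fitted over the whole table with edgeR 4.0.16 in R 4.3.3 (TMM factors, filterByExpr with a minimum count of 10, quasi-likelihood F test, group as the only term), with Benjamini-Hochberg adjustment over 14207 genes and a threshold of 0.05, two-sided. The procedure was tested on simulated data. Lists are described by counts and medians only. Counts per member and library ran from 24 to 3600. Counts of the control pair and of the siRNA pair differed by chi-squares of 1.50 and 1.84 per gene, so no library was a copy. Transcripts came from GENCODE release 29 (75 of 75 members matched), with 1 transcript per gene by APPRIS rank, then coding length. Named were the 6 largest rises and 6 largest falls at a mean of at least 5 CPM (only 2 rises met this), the 3 highest and 2 lowest by RPKM, 7 fixed members, and the 2 largest called changes of each list. Alternatives were other scaling factors, no filter, DESeq2 1.42.0, the replicate number as a block, each library left out, removal of the GC and length trend, members with transcript words left out and subunits by structure.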

Additional observations from a re-analysis of the deposited data

How the results depend on the processing

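The medians of both subunits were negative in every alternative, and the summed changes in every one that gave a sum (DESeq2 and the removal of the GC and length trend gave none); 27 of the 50 members that fell did so in all 12 fits. Counts of falls were lower with a library left out, with total counts and with upper-quartile factors. They were also lower with DESeq2 (41 members), with the GC and length trend removed (39) and without a filter (47). With RLE factors they were equal to the main ones (50, 32 and 18). With single libraries left out, falls ranged from 27 to 37 for all members, 19 to 27 for the large and 8 to 12 for the small subunit, and rises from 0 to 1 in each; the medians ranged from -0.27 to -0.20 (large) and -0.25 to -0.19 (small), the summed log2 changes from -0.29 to -0.25 (large) and -0.22 to -0.19 (small), and that of the ratio from -0.081 to -0.053. Over the lists, 19 to 29 genes then fell and 7 to 10 rose. With total counts, 10 small subunit genes fell, 6 members and 4 large subunit genes rose, the medians were -0.14 and -0.12, the summed changes -0.17 and -0.11, and over the lists 23 genes fell and 30 rose, against 36 and 19. With upper-quartile factors 5 members and 3 large subunit genes rose, with medians of -0.17 and -0.15 and summed changes of -0.20 and -0.14. With the GC and length trend removed 7 members and 5 large subunit genes rose, 11 small subunit genes fell and the large median was -0.14. With DESeq2, 63.0% of the large and 41.4% of the small subunit genes fell. By the same fit 1 member rose, 0 of the large and 1 of the small subunit. Without genes that carry any of 4 transcript words no large subunit gene rose (0 calls), the summed large change was -0.23 and that of the ratio -0.039; without MRPL18 and MRPL34 these were -0.24 and -0.030. The causes of these shifts were not tested. Same-numbered libraries did not deviate together (correlation 0.04 over all genes), and with the replicate number as a block 51 members (30.4% of all genes) fell and 3 rose. Members at 24 to 63 counts per library, MRPL38, MRPL53 and MRPS24, are limited by depth.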
